A study of Mus musculus with 3 samples.

Results

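The cells described here are interferon-high LepR+ stromal cells of mouse bone marrow, 133 of 3731 LepR+ cells and of 14914 cell barcodes in 3 single-cell RNA libraries. LepR+ stromal cells were taken as barcodes with at least 500 genes, at least 1000 UMIs (unique molecular identifiers, counted RNA molecules) and at most 10% mitochondrial UMIs that had at least 30 UMIs of Cxcl12 per 10000, at least 1 UMI of Lepr and 0 of Ptprc. Within them, a cell was interferon-high when its UMIs of Isg15, Ifit1, Ifit3, Irf7 and Cxcl10 together came to at least 10 per 10000. The other 3598 LepR+ cells are called the remaining cells.

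Every library was made from sorted bone marrow mesenchymal stromal cells with the 10x 3′ chemistry, from C57BL/6 mice 6 to 8 weeks old, and each of 3 genotypes had 1 library and no replicate. WT mice were the control. R76W is a transgenic mutant of connexin 43 (Gja1) that inhibits gap junctions between osteocytes, and D130 was read as the transgenic deletion of residues 130 to 136 that blocks osteocyte hemichannels as well as gap junctions. Flushed marrow and collagenase-treated bone fragments were freed of red cells and sorted after staining for PDGFRα, CD51 and the vessel and blood antigens CD31, CD45 and Ter119. The sources used here do not name the transgene's promoter, the sort gates or the number of mice pooled in a library.

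LepR+ stromal cells, also known as CXCL12-abundant reticular cells, line marrow sinusoids and supply CXCL12 and stem cell factor to blood stem cells. Interferons bind receptors on almost every cell type and act through JAK kinases to phosphorylate STAT proteins. A complex that holds STAT2 and IRF9 binds the interferon-stimulated response element (ISRE), while STAT dimers, the main route of interferon gamma, bind the GAS element. The genes switched on include antiviral effectors such as the IFIT and OAS families, interferon-inducible GTPases, antigen presentation genes, the T cell attracting chemokines CXCL9 and CXCL10, and feedback inhibitors such as USP18 and SOCS1.

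Interferon-high cells were about as deeply sequenced as their neighbours. Their median UMI number was 6442 (WT), 6413.5 (R76W) and 8693 (D130), against 6140, 8112 and 8455.5 in the remaining cells, so only R76W differed by much. Their median mitochondrial share over all libraries was 2.33%, against 2.22%. Scrublet, a doublet caller, marked 0 of the 133 cells, while it marked 51, 10 and 8 of the remaining cells in WT, R76W and D130. Libraries shared 4 to 8 barcodes in pairs, and 1 interferon-high cell had a barcode also seen in another library.

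Stromal genes that took no part in the selection were abundant in interferon-high cells. Adipoq, an adipokine gene that marks LepR+ cells, stood at 1512, 1292 and 1277 UMIs per 1000000 (CPM) in interferon-high cells of WT, R76W and D130, against 1196, 953 and 1079 in the remaining cells. Kitl (stem cell factor) stood at 1994, 1594 and 2657 CPM against 1997, 2345 and 2832. Of 15 LepR+ identity genes tested, 0 were called different in either direction by edgeR, limma or DESeq2, and their median log2 fold change was 0.02 beside -0.08 over all genes tested.

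Markers of most other cells that the sort could let through were sparse, and their levels differed by library. The 12 macrophage and monocyte markers together stood at 21.6, 22.7 and 66.1 CPM in interferon-high cells of WT, R76W and D130 and at 49.9, 49.7 and 48.1 in the remaining cells, and C1qa, C1qb, C1qc, Ctss and Adgre1 had no UMI in the 133 cells. The 9 neutrophil markers stood at 18.5, 15.1 and 82.6 against 51.9, 67.6 and 79.6 CPM, so in interferon-high cells D130 was the highest library for both lists. Their part in the results was not tested. The 8 endothelial markers stood at 14.1 against 13.9 CPM with the libraries pooled. The 6 fibroblast markers were more abundant, at 213, 378 and 211 CPM in interferon-high cells against 347, 431 and 258, with UMIs in 78 of 133 and 2355 of 3598 cells, and Dpt, Pi16 and Cd34 had no UMI in the 133. Most of this was Dcn, at 226 against 344 CPM with the libraries pooled. Only 1 UMI was found for 7 markers of plasmacytoid dendritic cells, a main source of type I interferon, and 1 for 10 lymphocyte markers. The 10 erythroid markers stood at 1851 against 4365 CPM, and their values by library are given with the lower genes.

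The 5 selecting genes chose the cells, so their values are a description. Isg15, a ubiquitin-like protein that is joined to other proteins, had a UMI in 127 of the 133 cells. Ifit1 and Ifit3, which bind foreign RNA or assist in it, had one in 96 and 77, and Irf7, the factor that amplifies interferon production, in 89. Cxcl10, a chemokine, was the most uneven, with UMIs in 46 cells, at 1704, 1231 and 2587 CPM in WT, R76W and D130 against 2.86, 3.30 and 4.10 in the remaining cells. These 46 cells gave 95.8% of all Cxcl10 UMIs of the LepR+ cells, and the 5 richest gave 49.3% of those in interferon-high cells. Isg15 stood at 1074, 801 and 1105 CPM against 64.1, 52.3 and 84.4, with smaller ratios than those of Cxcl10. All 5 genes were seen together in 22 cells, 4 in 34, 3 in 45, 2 in 22 and a lone gene in 10. Among the remaining cells 2 held all 5. In GRCm38 (GENCODE M21) Isg15 lies at chr4:156199424-156200818, Ifit1 at chr19:34640871-34650009 and Ifit3 at chr19:34583531-34588731. Irf7 lies at chr7:141262706-141266481, and Cxcl10, at chr5:92346638-92348889, is a close neighbour of Cxcl9 at chr5:92321347-92328079.

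Most of these genes share a short upstream sequence, so it is shown here. The ISRE was searched as GAAA, any 2 bases and GAAA, or TTTC, any 2 bases and TTTC for the other strand, in the 250 bases before each start in RefSeq promoters of GRCm38.p6. It was found for Isg15, Ifit1, Ifit3 and Cxcl10 and not for Irf7, and it was in 3.46% of all 27025 promoters. Each sequence is written 5′ to 3′ on the gene's strand, ends before the start, and has every ISRE match in capitals. Rsad2 and Bst2, antiviral genes outside the selection, are shown beside them as examples with a match. Of 2 others outside the selection, Gbp2 had 1 match and is not shown, and Cxcl9 had 0.
Isg15, minus strand, chr4:156200851-156200920: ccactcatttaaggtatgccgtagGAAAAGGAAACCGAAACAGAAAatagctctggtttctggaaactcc
Ifit1, plus strand, chr19:34640761-34640837: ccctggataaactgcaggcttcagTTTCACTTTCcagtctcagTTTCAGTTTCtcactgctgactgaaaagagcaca
Ifit3, plus strand, chr19:34583349-34583440: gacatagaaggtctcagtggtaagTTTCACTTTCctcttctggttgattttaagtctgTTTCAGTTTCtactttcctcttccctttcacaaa
Cxcl10, minus strand, chr5:92349069-92349126: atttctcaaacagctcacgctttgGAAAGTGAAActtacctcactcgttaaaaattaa
Rsad2, minus strand, chr12:26456539-26456596: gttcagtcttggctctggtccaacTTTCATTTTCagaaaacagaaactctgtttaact
Bst2, minus strand, chr8:71537563-71537626: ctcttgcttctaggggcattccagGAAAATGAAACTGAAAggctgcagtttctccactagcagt
Isg15 carries 3 overlapping matches in a run, Ifit1 and Ifit3 carry 2 each in the reverse orientation, and Cxcl10 carries 1. A match is a string of letters and was not tested for binding.

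The share of interferon-high cells differed between libraries beyond counting error. It was 2.93% in WT (45 of 1536 LepR+ cells, exact 95% interval 2.14 to 3.90), 1.55% in R76W (18 of 1159, 0.923 to 2.44) and 6.76% in D130 (70 of 1036, 5.30 to 8.46). The D130 interval lay above both others, and those of WT and R76W overlapped. With each cell thinned to 2000 UMIs, which leaves out shallower cells (78, 31 and 16), the shares were 6.52%, 4.70% and 11.96%, with D130 again highest. A genotype is a lone library here, so genotype and library cannot be told apart and no test between them was possible. The intervals cover counting error only.

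**Figure D1:**
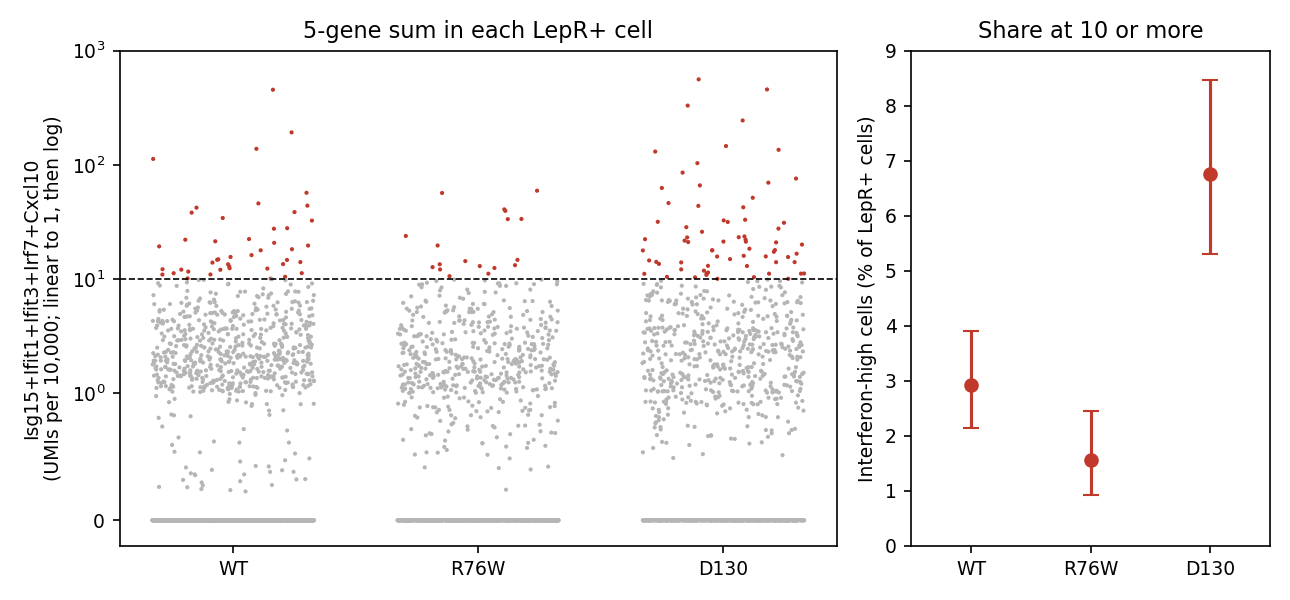
Left, the sum of Isg15, Ifit1, Ifit3, Irf7 and Cxcl10 in each LepR+ cell (points, UMIs per 10000, linear to 1 and then logarithmic), with the threshold of 10 as a dashed line and interferon-high cells in red. Right, the share of interferon-high cells per library with exact 95% intervals: 2.93% in WT, 1.55% in R76W and 6.76% in D130.

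Cells ran through the threshold without a gap. In WT the lowest values inside were 10.1, 10.2 and 10.5 per 10000, and the highest outside were 9.99, 9.85 and 9.84. The nearest cells on either side were at 10.6 and 9.91 in R76W and at 10.1 and 9.92 in D130. Over all libraries 51 cells lay from 8 to under 10 and 23 from 10 to under 12. The spread above was wide: 72 cells held 10 to under 20, 40 held 20 to under 50 and 21 held 50 or more, of which 14 were D130, 5 WT and 2 R76W. The highest cell, from D130, reached 562 per 10000 and carried 255 Cxcl10, 40 Isg15, 28 Ifit3 and 21 Ifit1 UMIs among its 6176.

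Interferon genes that did not select the cells followed the same scale. They were summed over 105 genes of the lists of JAK, STAT and IRF genes, nucleic acid sensors, antiviral effectors, ISG15 conjugation genes and GTPases. The 5 selecting genes, Ifit3b and Ifit1bl1 were left out, and antigen presentation genes were summed apart. The median sum of the 105 genes was 65.1 UMIs per 10000 in cells with none of the 5. It was 73.8 above 0 to under 5 and 99.2 from 5 to under 10. It was 120.6 in cells from 10 to under 20, 179.6 from 20 to under 50 and 311 at 50 or more. Each step was upward in pooled cells, including the steps below the threshold. Of the 133 interferon-high cells, 101 (75.9%, exact interval 67.8 to 82.9) exceeded the pooled 95th percentile of the remaining cells, which was 114.8 per 10000. Against each library's own 95th percentile, 29 of 45 WT cells, 15 of 18 R76W cells and 50 of 70 D130 cells did. For the 24 antigen presentation genes summed alone, 23 cells (17.3%, 11.3 to 24.8) exceeded the pooled 95th percentile.

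**Figure D2:**
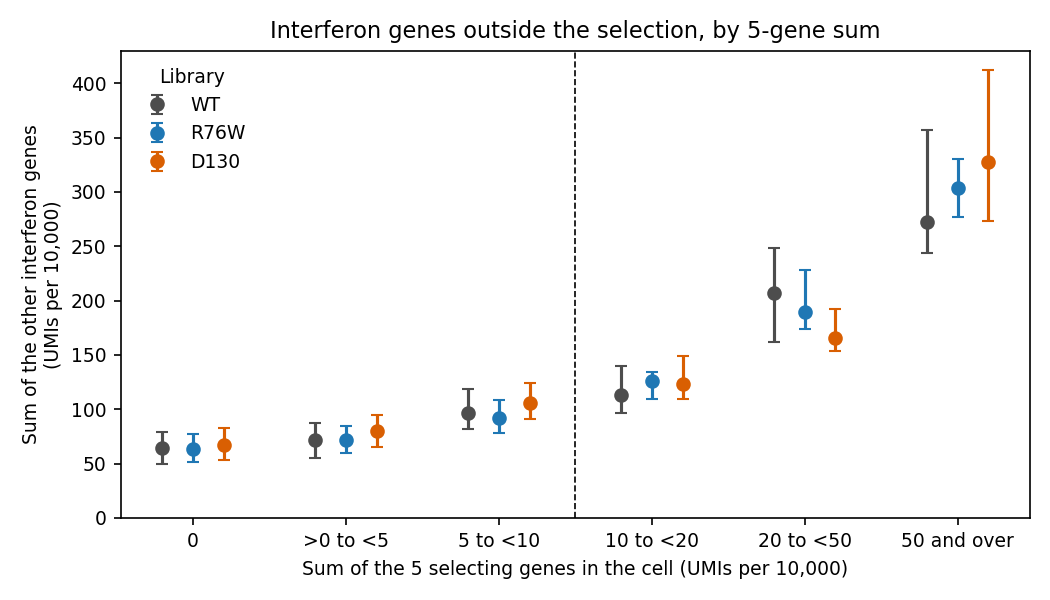
Sum of 105 interferon genes outside the selection, antigen presentation genes left out, by the cell's 5-gene sum, for the 3 libraries. Values are UMIs per 10000, points are medians over cells, bars are quartiles and the dashed line is the threshold of 10. Pooled medians go from 65.1 in cells with none of the 5 genes to 311 in cells at 50 or more.

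Other cell classes of the same libraries gave the level against which a UMI can be read. At the same threshold stood 5 of 769 erythroid cells in WT, 0 of 58 in R76W and 1 of 76 in D130, and 4 of 196, 4 of 117 and 6 of 262 leukocytes. Among osteoblast-gated cells (Col1a1 at least 50 per 10000, no Lepr, no Ptprc) the counts were 0 of 118, 0 of 70 and 0 of 99, with upper exact limits of 3.08%, 5.13% and 3.66%. A lone UMI of Isg15 said little, since 34.5%, 34.5% and 50% of erythroid cells had one at median depths of 20825, 21150.5 and 25769 UMIs, against 28.5%, 27.3% and 39.4% of LepR+ cells at 6140.5, 8084 and 8461. Ifit3 had a UMI in 0.39%, 0% and 0% of erythroid cells and in 7.23%, 5.95% and 10.04% of LepR+ cells.

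Gene levels in the interferon-high and the remaining cells were then compared with UMIs summed per library, which gives 3 pairs of sums. edgeR's quasi-likelihood test with the library as a block called 181 of 12952 genes higher (1.4%) and 138 lower (1.07%) at an adjusted p under 0.05. The 3 pairs come from 3 genotypes and the cells of a pair from 1 library, so the p-values hold for these 3 libraries only. edgeR found no extra spread from gene to gene here and used a common estimate. Its p-values set a gene's change against that common spread and do not measure how alike the gene's 3 differences were. With a spread for each gene, limma voom called 124 higher and 15 lower, and DESeq2 called 112 and 15 among the 9183 genes it tested. All 3 tools agreed on 107 of the higher genes and on 13 of the lower ones.

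Of the 181 higher genes 85 were in the lists of interferon genes, chemokines and feedback inhibitors, and 96 were in none of them. In the interferon lists together 79 of 116 tested genes were higher and 0 lower, with a median log2 fold change of 1.24 beside -0.08 over all genes tested. limma called 70 of the 116 and DESeq2 66, counts that include H2-K1 and, for limma, H2-D1, which edgeR did not call. In 82 of the 116 the lowest interferon-high library lay above the highest remaining one, which held for 5.47% of all genes tested. The cells were chosen by 5 genes of the same program, so these counts describe how broadly it was carried and are no separate evidence that it was on.

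**Figure D3:**
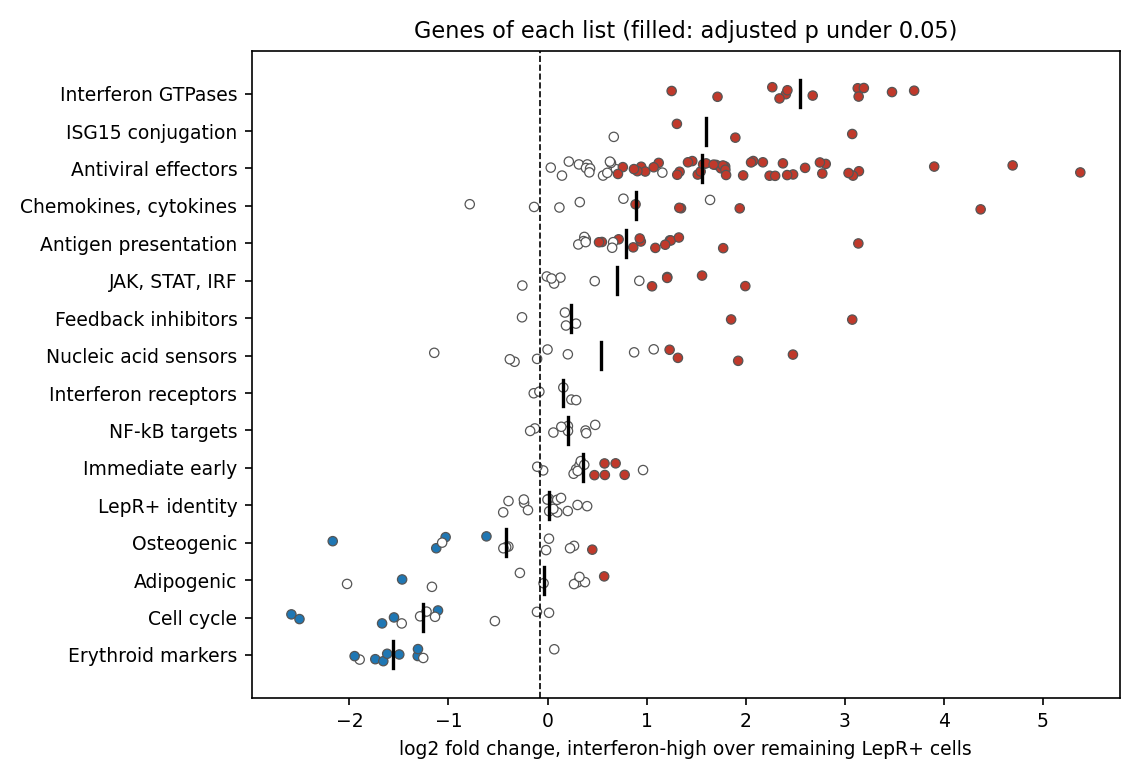
Log2 fold change of each tested gene (points), interferon-high over remaining LepR+ cells, by gene list; red and blue points had an adjusted p under 0.05 by edgeR's quasi-likelihood test, short lines are list medians and the dashed line is the median of all genes tested (-0.08). All 12 interferon GTPases tested lie to the right, with a median of 2.55, and the 15 LepR+ identity genes lie around 0; Cfd, with no UMI in interferon-high cells, is not drawn.

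Almost no interferon RNA was found in the cells. Of 9 ligand genes looked for (Ifna1, Ifna2, Ifna4, Ifnb1, Ifne, Ifng, Ifnk, Ifnl2 and Ifnl3), 8 had no UMI in any LepR+ cell and Ifnk had 1 in the interferon-high and 1 in the remaining cells. The receptors were detected in both groups. Ifnar2, a chain of the type I receptor, stood at 432, 536 and 458 CPM in interferon-high cells of WT, R76W and D130 and at 352, 400.1 and 417 in the remaining cells. Ifnar1, the other type I chain, stood at 55.6, 75.5 and 51.2 CPM against 58.8, 68.5 and 61.4. Of the 5 receptor chains tested, 0 were called, with log2 differences from -0.14 ± 0.23 (SE, Ifnar1) to 0.29 ± 0.17 (Ifngr2).

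Parts of the ISRE-binding complex were higher in every library. Stat2 stood at 145, 212 and 167 CPM in interferon-high cells of WT, R76W and D130 and at 47.2, 56.6 and 63.9 in the remaining cells, so the groups did not overlap. Its log2 fold change was 1.56 ± 0.18 (SE, edgeR adjusted p = 8.79e-16). Irf9, its partner, stood at 86.4, 83.1 and 66.1 CPM against 32.1, 31.8 and 33.1, again without overlap (1.21 ± 0.24, edgeR adjusted p = 6.12e-05). Irf1, an interferon-induced transcription factor, stood at 207, 227 and 329 CPM against 114, 114 and 136 (1.06 ± 0.16, edgeR adjusted p = 2.64e-09). In all 5 of 12 JAK, STAT and IRF genes were higher and 0 lower, among them Irf8, which limma (adjusted p = 0.116) and DESeq2 (adjusted p = 0.165) did not call. Without WT or D130 the edgeR adjusted p of Irf8 was 0.0877 or 0.669. The kinases Jak1, Jak2 and Tyk2 and Stat3, with fold changes from -0.25 to 0.13 on the log2 scale, were not called.

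Interferon-inducible GTPases, which attack the vacuoles of intracellular pathogens, were higher in 12 of 12 tested genes, with a median log2 fold change of 2.55, and limma and DESeq2 each called 11. Iigp1 stood at 1558, 2100.0 and 2382 CPM in interferon-high cells against 189, 217 and 258 in the remaining cells. The groups lay far apart, with a log2 fold change of 3.14 ± 0.14 (edgeR adjusted p = 4.79e-101) and UMIs in 115 of the 133 cells. Gbp2, a guanylate-binding protein, stood at 219, 468 and 322 CPM against 29.2, 26.3 and 27.9 and was found in 57 cells (3.48 ± 0.17, edgeR adjusted p = 5.17e-94). Gbp6, Tgtp2 and Igtp followed, at log2 fold changes of 3.70, 3.19 and 3.13. Igtp and Irgm2 overlap on chromosome 11, as do Ifi47 and Olfr56 (an olfactory receptor gene by name, 3.21), so the split of reads within these pairs is uncertain.

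Antiviral effectors were higher in 42 of 56 tested genes and lower in 0, with a median of 1.56. Rsad2 (viperin, which makes a chain-ending nucleotide) had the highest log2 fold change of the named genes that were tested, 5.38 ± 0.41 (edgeR adjusted p = 1.09e-36). It stood at 83.3, 83.1 and 82.6 CPM in interferon-high cells and at 3.49, 1.501 and 1.03 in the remaining cells, yet only 26 of the 133 cells had a UMI of it. Bst2 (tetherin, which holds budding virus on the cell) was more even, with UMIs in 119 cells and 762, 914 and 758 CPM against 233, 257 and 237 (1.70 ± 0.14, edgeR adjusted p = 2.1e-31). Ifitm3, which blocks viral entry, was in all 133 cells and in 94.5% of the remaining cells, at 3234, 2735 and 3078 CPM against 1482, 1377 and 1737 (0.95 ± 0.13, edgeR adjusted p = 4.57e-10). Of these 3 genes the rarest in the remaining cells had the highest fold change and the most widespread had the lowest. Oas1a, a sensor that makes 2-5A to activate RNase L, and Ifi207 were also higher (3.14 and 3.90), as was Calhm6 (3.24), a channel gene outside the lists. Ifit3b (4.70) is a near copy of Ifit3, so reads of these genes may have been assigned to either.

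**Figure D4:**
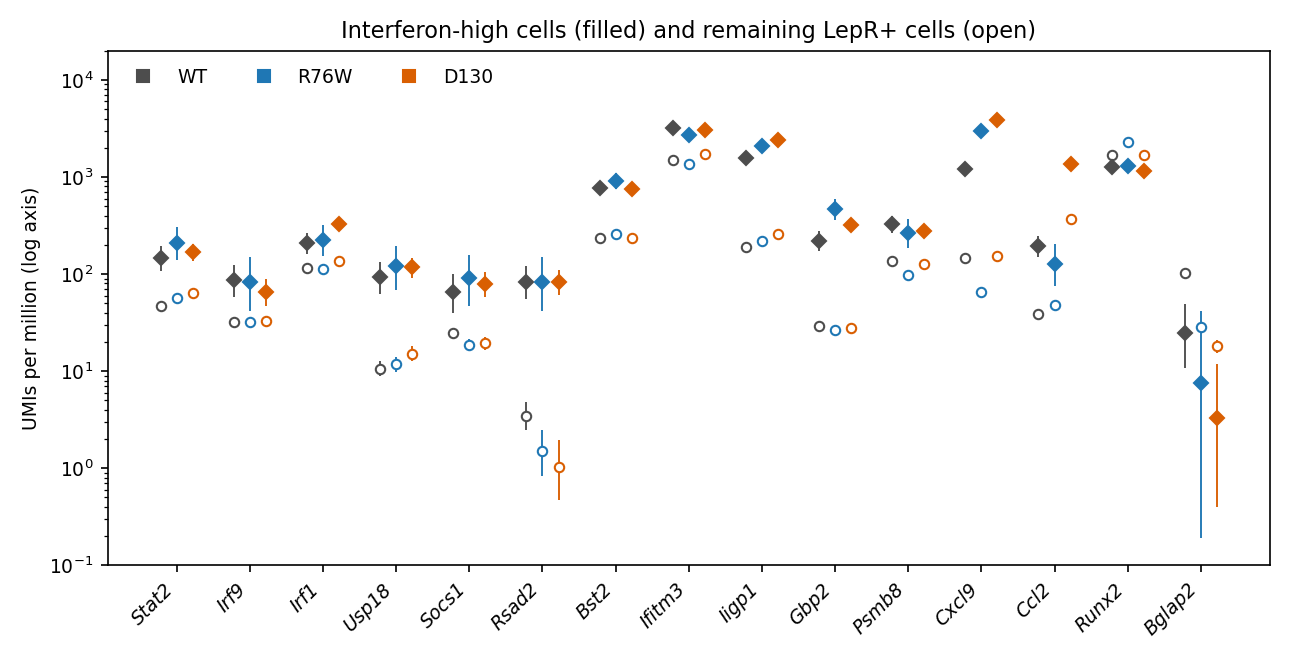
CPM (UMIs per 1000000, log axis) with exact 95% Poisson intervals in interferon-high cells (filled diamonds) and remaining LepR+ cells (open circles), WT in grey, R76W in blue and D130 in orange. Stat2, Irf9, Irf1, Rsad2, Iigp1 and Cxcl9 have every filled point above every open one, while Runx2 has every filled point below; intervals that reach under 1 belong to sums of few UMIs.

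Of the ISG15 conjugation genes 3 of 4 were higher: Usp18 (3.08 ± 0.25, edgeR adjusted p = 7.42e-32), which removes ISG15 and blocks the type I receptor, Herc6 (1.90) and Ube2l6 (1.31, edgeR adjusted p = 0.0999 without D130). Uba7, the activating enzyme, stood at 46.3, 98.2 and 26.4 CPM against 32.5, 29.2 and 23.8 and was not called. Usp18 also counts among the feedback inhibitors, where it and Socs1 were the 2 of 6 that were higher. Socs1, which inhibits JAK kinases, stood at 64.8, 90.6 and 79.3 CPM against 24.5, 18.5 and 19.4 (1.85 ± 0.26, edgeR adjusted p = 1.19e-10). Socs3, more tied to the interleukin 6 route, stood at 281, 415 and 433 against 251, 312 and 336 and was not called.

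Sensors of nucleic acids were higher in 4 of 12 tested genes and lower in 0: Zbp1 (2.48 ± 0.22, edgeR adjusted p = 2.23e-26), Dhx58 (1.92), Ifih1 (1.32) and Ddx58 (1.23). Zbp1, a sensor of left-handed nucleic acid, stood at 127, 151 and 116 CPM in interferon-high cells against 22.4, 23.4 and 21.9. Ddx58 and Ifih1 encode the RNA sensors RIG-I and MDA5, themselves interferon-inducible. Without D130 the edgeR adjusted p was 0.198 for Ifih1 and 0.536 for Dhx58, and 0.193 for Dhx58 without WT. Mavs, Cgas, Tmem173 (STING), Myd88 and Tlr4, which pass signals on upstream of interferon, were not called.

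Antigen presentation genes were higher in 13 of 20 tested genes and lower in 0, with a median of 0.79. The immunoproteasome subunit Psmb8 stood at 327, 264 and 281 CPM in interferon-high cells against 135, 97.5 and 127 (1.23 ± 0.15, edgeR adjusted p = 1.79e-13), and Psmb9, Psmb10, Tap1 and Nlrc5 were also higher. Cd274 (PD-L1), which restrains T cells, had a log2 fold change of 3.14 ± 0.57 (edgeR adjusted p = 5.9e-06) with UMIs in 18 cells, but 0.233 as edgeR adjusted p without D130. The classical class I heavy chain H2-K1 stood at 2784, 2599 and 2802 CPM against 2045, 1877 and 2197, without overlap, at 0.39 ± 0.13. edgeR did not call it (adjusted p = 0.117), while limma (adjusted p = 0.0209) and DESeq2 (adjusted p = 0.0367) did. Of the class II genes Cd74, Ciita, H2-Aa and H2-Ab1 had too few UMIs to be tested.

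Among chemokines, Cxcl9 and Ccl2 were called higher by all 3 tools. Cxcl9, the partner of Cxcl10 at the receptor CXCR3 and no part of the selection, stood at 1204, 3006 and 3835 CPM in interferon-high cells of WT, R76W and D130 and at 148, 64.7 and 155 in the remaining cells. The lowest of the former was several times the highest of the latter, with a log2 fold change of 4.37 ± 0.16 (edgeR adjusted p = 4.37e-166). edgeR with a robust spread gave an adjusted p of 0.384, while limma and DESeq2 both called the gene. UMIs of Cxcl9 were in 66 of the 133 cells and in 12.1% of the remaining cells. Ccl2, which attracts monocytes, stood at 194, 128 and 1371 CPM against 38.9, 47.6 and 368, so D130 was high in both groups (1.94 ± 0.16, edgeR adjusted p = 4.2e-29), and 27.3% of its UMIs in interferon-high cells came from 1 cell. In all 5 of 11 chemokine and cytokine genes were higher (Cxcl9, Ccl2, Ccl7, Cxcl1 and Ccl19) and 0 lower, while limma called 3 of the list and DESeq2 2. Ccl7 was above the remaining cells in D130 alone, at 149 against 42.7 CPM, with 12.3 against 12.4 in WT and 7.55 against 12.7 in R76W. Cxcl1 had 36 UMIs in interferon-high cells and 0 of them in R76W. Ccl19 stood at 426 against 173 CPM in WT and 438 against 223 in D130 but at 90.6 against 120.1 in R76W, and without WT or D130 its edgeR adjusted p was 0.27 or 0.0958. Of 9 NF-kB target genes, among them Nfkbia, Icam1 and Tnfaip3, 0 were called.

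Cells with and without Cxcl10 differed in which interferon genes they carried. The split uses a selecting gene and is given as a description over pooled libraries. Cxcl9 stood at 7215 CPM in the 46 cells with Cxcl10, 295 in the 87 without and 122 in the remaining cells, and 41 of the 46 had a UMI of it. Gbp2 (708, 63.9 and 27.8 CPM) and Iigp1 (4096, 867 and 219) had the same order, and all 3 genes kept it within each library. Tap1 stood at 238, 59.3 and 33.6 CPM, but in R76W cells without Cxcl10 held 1 UMI of it (13.1 against 29.9 CPM in the remaining cells). Ccl2 lay above the remaining cells only in cells with Cxcl10. It stood at 492 (WT), 302 (R76W) and 3143 CPM (D130) with Cxcl10 and at 5.05, 0 and 347 without. In the remaining cells it stood at 38.9, 47.6 and 368. The R76W value with Cxcl10 rests on 17 UMIs in 1 of 6 cells. The other selecting genes had no order common to the 3 libraries. Cells without Cxcl10 had to reach the threshold by these genes alone, so their levels there are in part set by the selection. Pooled Isg15 stood at 1074 CPM with Cxcl10 and 1048 without, but in R76W at 515 (Poisson interval 345 to 740) and 1012 (799 to 1265). Irf7 stood at 163 and 164 CPM pooled and at 103 and 207 in WT, and Ifit1 at 450.5 and 398 pooled. Ifit3 stood at 500 and 176 CPM pooled, at 675 and 162 in WT and at 473 and 167 in D130, but at 213 and 263 in R76W. H2-K1 stood at 2478 CPM with Cxcl10 and 2951 without. Of the 133 cells, 62 had neither Cxcl9 nor Cxcl10.

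**Figure D5:**
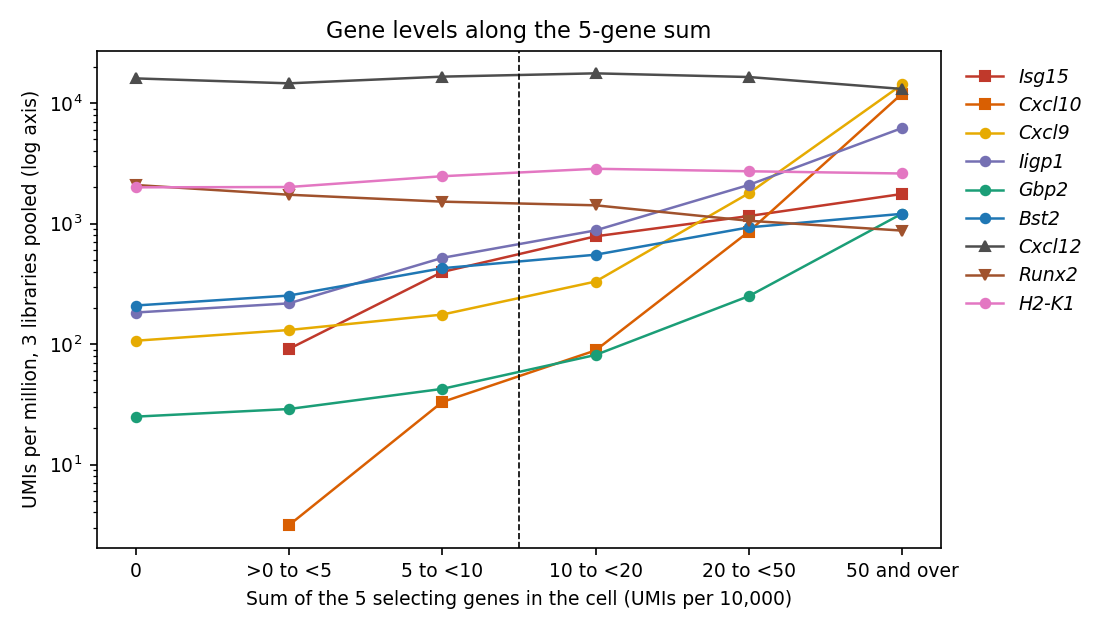
CPM (UMIs per 1000000, log axis, 3 libraries pooled) by the cell's 5-gene sum, with the threshold of 10 dashed; squares are selecting genes, and points at 0 are left out. Cxcl9 and Gbp2 climb mostly above 20 per 10000, Bst2 climbs throughout, from 209 to 1206, H2-K1 goes from 2001 to 2853 and back to 2607, and Cxcl12 lies between 13121 and 17684, while Runx2 goes from 2093 to 875.

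The ISRE letters were counted in the promoters of the higher genes. A RefSeq promoter was found for 145 of the 181 higher genes, and 35 of them (24.1%) had a match in the 250 bases, against 3.15% of the 9934 tested genes with a promoter. Among the 104 lower genes with a promoter, 0 had a match. The cells were chosen by 5 genes of which 4 carry these letters, so the shares are a description and no separate evidence. By group, a match was seen in 8 of 9 GTPase genes, 17 of 47 antiviral effectors and 3 of 18 antigen presentation genes. The GAS letters TTCNNNGAA, the same on both strands, were in 20 of 145 higher genes (13.8%) and in 5 of 9 GTPase genes, against 7.11% of genes tested.

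Genes of the bone and fat lineages, immediate early genes and cell cycle genes were described as lists, and the genes named from them were chosen after their values were seen. Of 13 osteogenic genes 4 were lower, 1 was higher and the median was -0.42. In 3 of the 13 every interferon-high library lay below every remaining one, which held for 10.3% of all genes tested. Runx2, the master factor of osteoblasts, stood at 1275, 1284 and 1166 CPM in interferon-high cells of WT, R76W and D130 against 1687, 2279 and 1705 in the remaining cells. The groups did not overlap, and the log2 fold change was -0.62 ± 0.14 (edgeR adjusted p = 0.000676, limma 0.00708, DESeq2 0.00577). Without D130 the log2 fold change was -0.67 with an edgeR adjusted p of 0.177. Across the 5-gene sum, pooled Runx2 went from 2093 CPM in cells with none of the 5 genes to 1419 from 10 to under 20 and 875 at 50 or more. Bglap2, an osteocalcin gene, was lower too (24.7, 7.55 and 3.30 against 103, 28.3 and 18.1 CPM; -2.17 ± 0.39, edgeR adjusted p = 4.83e-06), but it rests on 11 UMIs in interferon-high cells, and its reads may be shared with its near copy Bglap. Its edgeR adjusted p was 0.102 without WT and 0.175 without cells of more than 1 hemoglobin UMI. Col1a1, the main bone collagen gene, stood at 173 against 934 CPM in WT, 370.1 against 425 in R76W and 229.6 against 352 in D130 (-1.12 ± 0.16, edgeR adjusted p = 2.54e-10), and neither limma (adjusted p = 0.0918) nor DESeq2 (adjusted p = 0.969) called it. Without WT its log2 fold change was -0.44 (edgeR adjusted p = 0.682). Bglap was below the remaining cells in WT (67.9 against 253 CPM) and not in D130 (38 against 32.4), and without WT its log2 fold change was 0.0031. Spp1 (osteopontin) was the higher gene, at 0.45 ± 0.14 (edgeR adjusted p = 0.0475), and neither limma (adjusted p = 0.203) nor DESeq2 (adjusted p = 0.191) called it. Without WT, R76W or D130 its edgeR adjusted p was 0.0502, 0.289 or 0.451, and the Spp1 log2 fold change was -0.52 at a threshold of 20.

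Adipogenic genes showed no common direction. Of 11 tested, 1 was higher (Cebpb, 0.57 ± 0.15, edgeR adjusted p = 0.0102) and 2 were lower (Fabp4 and Cfd), and limma and DESeq2 called 0 of them. Without WT or D130 the edgeR adjusted p of Cebpb was 0.141 or 0.881. Cfd had no UMI in interferon-high cells and 209 in 15 of the remaining cells. Its level in the remaining cells was 2.47-fold a floor of 3 UMIs over the pooled interferon-high cells. That ratio treats UMIs as independent. With so few cells holding the gene, it sets no minimum for the difference. Pparg stood at 148, 136 and 408 CPM against 219, 189 and 412 and was not called.

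Immediate early genes, which are switched on within minutes of many stimuli, tissue dissociation among them, were higher in 5 of 14 genes and lower in 0, with a median of 0.35. Jun stood at 839, 574 and 839 CPM in interferon-high cells against 380.4, 424 and 497 in the remaining cells (0.78 ± 0.14, edgeR adjusted p = 3.91e-06), and Fosb, Fos, Btg2 and Junb were called higher by edgeR as well. limma (adjusted p = 0.221) and DESeq2 (adjusted p = 0.546) did not call Btg2, and limma (adjusted p = 0.051) did not call Junb. Without WT or D130 the edgeR adjusted p of Btg2 was 0.0785 or 0.903 and that of Junb 0.674 or 0.464. Egr1 was not called. With cells holding more than 1 hemoglobin UMI left out, Jun kept an edgeR adjusted p of 0.0408, while Fos (0.659), Fosb (0.0847), Btg2 (0.321) and Junb (0.898) did not pass. Without WT the edgeR adjusted p of Jun was 0.104, and without WT or D130 those of Fos were 0.336 and 0.305 and those of Fosb 0.315 and 0.342. The part of dissociation in these values was not tested.

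Summed erythroid RNA was lower in interferon-high cells, while hemoglobin RNA in the median cell was nearly the same. The 10 erythroid markers together stood at 5694, 106 and 175 CPM in interferon-high cells of WT, R76W and D130 and at 9749, 1201 and 1108 in the remaining cells, with 7 of 10 lower, of which limma called 3 and DESeq2 1. WT was the high library in both groups, and the part of erythroid RNA in the lower genes was not tested. Of the 138 lower genes 56 (40.6%) had a higher level in the erythroid cells of these libraries than in the remaining LepR+ cells, against 25.1% of all genes tested and 9.94% of the higher genes. Cell cycle genes, which dividing erythroblasts also express, were lower in 5 of 12 (Top2a, Mki67, Cdk1, Ube2c and Birc5), of which limma and DESeq2 called Top2a alone. Without cells holding more than 1 hemoglobin UMI 74 genes were lower, 42 of them among the 138. The 10 lowest fold changes belonged to genes found in 0 to 2 interferon-high cells each, among them Pf4, Cfd, Trim59, Ifitm5, 1700034P13Rik, Nusap1, Hist1h2an, Slc25a21 and Rhag. Pf4, Trim59 and Ifitm5 had no UMI there, and limma called none of the 3. Their levels in the remaining cells were 3.53-fold, 3.18-fold and 2.95-fold a floor of 3 UMIs over the pooled interferon-high cells. These ratios treat UMIs as independent and set no minimum for the difference. The lower genes that all 3 tools called were Adamts5, Bglap2, Ghr, Hba-a2, Hist1h1b, Hist1h2ap, Magi2, Rspo2, Runx2, Slc25a21, Slc5a3, Thsd4 and Top2a.

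Genes close to the study's question gave no call. Of 10 prostaglandin E2 genes tested 0 were called, with Ptger4, a receptor, at 30.9, 30.2 and 36.3 CPM against 23.9, 31.1 and 40.8, and Ptgs2 had too few UMIs to be tested. Gja1, the connexin 43 gene itself, stood at 562, 1019.8 and 1064 CPM in interferon-high cells and at 686, 1193 and 1228 in the remaining cells (-0.27 ± 0.14, edgeR adjusted p = 0.461). Whether any of these reads came from a transgene was not tested.

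The number of calls depended on which libraries and cells were used. Of the interferon lists, 66, 86 and 54 genes were higher without the WT, R76W or D130 library, against 79 with all 3, and 65 without the 21 cells at 50 or more per 10000. Without these 21 cells edgeR called 118 genes higher, 116 of them among the 181. Without the WT, R76W or D130 library all higher calls numbered 119, 222 and 87, of which 117, 168 and 84 were among the 181, and the lower calls were 33, 122 and 49. With a threshold of 20 per 10000, 61 cells remained (18 WT, 7 R76W and 36 D130) and 159 genes were higher.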

How the data were processed

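Per the file headers, the authors made the deposited matrices with Cell Ranger 7.0.1, and the values are raw UMI counts for each gene in each barcode. Seurat and the mm10 build are named too, per the submitters' processing notes. Each of the 3 libraries is its own sample. Counts of symbols with several identifiers were summed. Library totals ranged from 29558251 UMIs (R76W) to 81837778 (WT). Members, gene lists and tests were chosen with earlier results of these data known. Doublets were called with Scrublet in scanpy 1.11.5, by its own threshold or, in WT, by its top 3.50% of scores, and kept. UMIs were summed per library and cell set, and genes with at least 50 UMIs were tested with edgeR 4.0.16 (TMM, quasi-likelihood, library as block, two-sided, Benjamini-Hochberg over all genes tested, 0.05), leaving out the 8 selecting genes. DESeq2 1.42.0 and limma 3.58.1 were alternatives. The edgeR step was tested on simulated data with the same spread for every gene. It called 9 of 43 genes given a log2 change of -1 and 27 of 49 given -2. For changes of 2 and 3 it called 48 of 54 and 51 of 51, and it called 2 of 12651 unchanged genes. Decreases were thus often missed. UMIs were not gathered in few cells there, so false calls from such genes could not show. Shares carry exact Clopper-Pearson and CPM exact Poisson 95% intervals, for counting error only. Named genes were the selecting genes, all ligand, receptor, JAK-STAT-IRF and ISG15 conjugation genes, the 6 with most UMIs of each other interferon list, and, among called genes with the same direction in all libraries, the 15 highest fold changes (at least 20 UMIs in interferon-high cells) and the 10 lowest (at least 200 in remaining cells). Promoters are RefSeq's (GRCm38.p6). Some items that the naming rule takes are not reported here.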

Additional observations from a re-analysis of the deposited data

Results flagged for a closer look

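Some genes that were not called had ratios of interferon-high to remaining cells on opposite sides of 1 in different libraries, with exact Poisson intervals that did not overlap within each library. The difference between libraries was not tested, since each genotype is 1 library. Egr1, an immediate early gene, had ratios of 1.77 in WT, 0.574 in R76W and 1.27 in D130. Nfkbia, the NF-kB inhibitor, had 1.71, 0.432 and 1.49. R76W was the low library for both, with only 18 interferon-high cells behind it. Vcam1, an adhesion molecule of LepR+ cells, had 1.47 in WT and 0.922 in D130. Esm1 had 0.748 in R76W and 1.16 in D130.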

How the results depend on the processing

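The order of the shares, D130 over WT over R76W, was the same under every setting run. At a threshold of 5 per 10000 the shares in WT, R76W and D130 were 8.33%, 6.82% and 14.3%, at 20 they were 1.17%, 0.604% and 3.47%, and thinned to 2000 UMIs they were 6.52%, 4.70% and 11.96%. Against 181 higher and 138 lower genes, DESeq2 called 112 and 15, limma voom called 15 lower, and leaving out a library gave 87 to 222 higher and 33 to 122 lower. Comparing with remaining cells that had no UMI of the 5 genes gave 364 and 252, and a threshold of 5 gave 275 and 272. Leaving out cells at 50 or more per 10000 gave 118 higher. The lower count was 74 without cells of more than 1 hemoglobin UMI, 90 with Cxcl10 out of the sum and 57 at a threshold of 20. With no replicate block, edgeR called 62 genes higher and 0 lower, with 816 genes at an unadjusted p under 0.05, and DESeq2 and limma called 15 lower with the library in the fit. The interferon lists then held 49 higher genes in place of 79. Both sums of a library come from the same sorted cells, so the block is the library itself. The 1700034P13Rik log2 fold change was 0.47 at a threshold of 5, and the Spp1 log2 fold change was -0.52 at a threshold of 20. The Bglap log2 fold change was 0.082 without cells of more than 1 hemoglobin UMI and ran from -1.77 to 0.0031 when a library was left out. Limma, the robust spread, the hemoglobin UMI limit and leaving out cells at 50 or more were chosen after seeing the data. The cause of these shifts was not tested. Depth limits rare genes: a gene with no UMI in the pooled interferon-high cells can be called on the common spread alone, and 18 R76W cells give wide intervals.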
